A study of Homo sapiens with 18 samples.

Results

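T24 cells transfected with siACAT1-2 were compared with T24 cells transfected with the control siRNA, siNC. The comparison takes 6 of the 18 RNA-seq libraries of the series, 3 for each siRNA, chosen by the cell line and siRNA in their labels and paired by replicate number, and is described over the 20144 of 39496 annotated genes that had enough counts. T24 is an established human cell line from a transitional cell carcinoma of the bladder and was grown in RPMI-1640 medium with fetal bovine serum. Both siRNAs were delivered with a Lipofectamine reagent, all 6 libraries carry the genotype label WT, and the time between transfection and harvest is not given in the sources used here. The remaining libraries are T24 cells with another siRNA against the same gene, siACAT1-1, and UM-UC-3 bladder cancer cells with each of the 3 siRNAs.

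ACAT1 is the mitochondrial acetyl-CoA acetyltransferase, a thiolase that acts in the breakdown of ketone bodies and of isoleucine. A small interfering RNA is loaded into an Argonaute protein and directs the cleavage of transcripts that match it over its length. An siRNA can also lower other transcripts, in the manner of a miRNA, through short matches in their 3′ UTRs, which is why a target is commonly silenced with more than 1 siRNA.

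The summed gene counts of the 6 libraries ran from 28038644 to 34417230 (median 28620416). In both groups the library of replicate 2 stood apart: the chi-square per degree of freedom between its counts and those of another replicate was 110 to 183, against 41.4 to 45.6 between replicates 1 and 3. Over the 6 libraries, replicate number accounted for 58.9% of the variance and the siRNA for 19.4%. These shares are not adjusted for the number of groups each forms, and unstructured spread would also give each a share. Libraries are given below in the order of replicates 1, 2 and 3, and each log2 fold change is that of siACAT1-2 against siNC with its standard error (SE). The keratin KRT7 of the bladder epithelium was at 102.5 to 370.7 RPKM (reads scaled to exon length and to the library total), while UPK1B and KRT14 were listed at 0 in all 6 libraries and UPK1A, UPK2, UPK3A and UPK3B did not reach 1 RPKM. Of the other urothelial markers, PPARG was at 3.548 to 6.231 RPKM, KLF5 at 3.329 to 7.765 RPKM and FOXA1 at 0.4993 to 1.89 RPKM, and the rest stayed under 1 RPKM. Of the markers of blood, vessel, stromal, muscle, nerve and liver cells, CD3E was at 0 throughout and PTPRC did not exceed 0.01695 RPKM. CD68, a lysosomal membrane protein used as a macrophage marker, and HBA1 made up nearly all of that list's summed level.

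The knockdown reached the same low level in each replicate. ACAT1 (chromosome 11, 108121516 to 108147776, plus strand, GRCh38) was at 16.8, 14.6 and 17.1 RPKM with siNC and at 0.789, 0.916 and 0.671 RPKM with siACAT1-2. The groups did not overlap, and the mean fell by 95.1% (log2 fold change -4.34, SE 0.17, adjusted p = 2.14e-12). Exons of an antisense gene, RP11-144G7.2, cover 2.92% of its exon length.

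After Benjamini-Hochberg adjustment, 1708 genes, 8.48% of those tested, were called at an adjusted p under 0.05 in edgeR's quasi-likelihood test. Of these, 916 were higher (4.55% of genes tested) and 792 lower (3.93%). Most changes were small: the median size of the log2 fold change among called genes was 0.65, and 161 genes rose and 166 fell by more than 1 on the log2 scale. The same sign was seen within all 3 replicate numbers for 1680 of the called genes, against 8777 of all 20144. The test pairs the same libraries by replicate number, so this agreement among called genes is no separate evidence for the calls. RPKM did not overlap between the groups for 896 of the called genes, against 2406 of all 20144 (11.9%). Where a gene below is said not to overlap, this comes from the same libraries and is no separate evidence either. The number of calls rested on the pairing, since without the replicate block 54 genes were called, all of them among the 1708. It also rested on replicates 1 and 3. Without siNC replicate 1 there were 559 calls, without siACAT1-2 replicate 1 there were 854, without siNC replicate 3 there were 652 and without siACAT1-2 replicate 3 there were 841. With both libraries of a number left out, 473 genes were called without replicate 1, 539 without replicate 3 and 1831 without replicate 2.

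**Figure D1:**
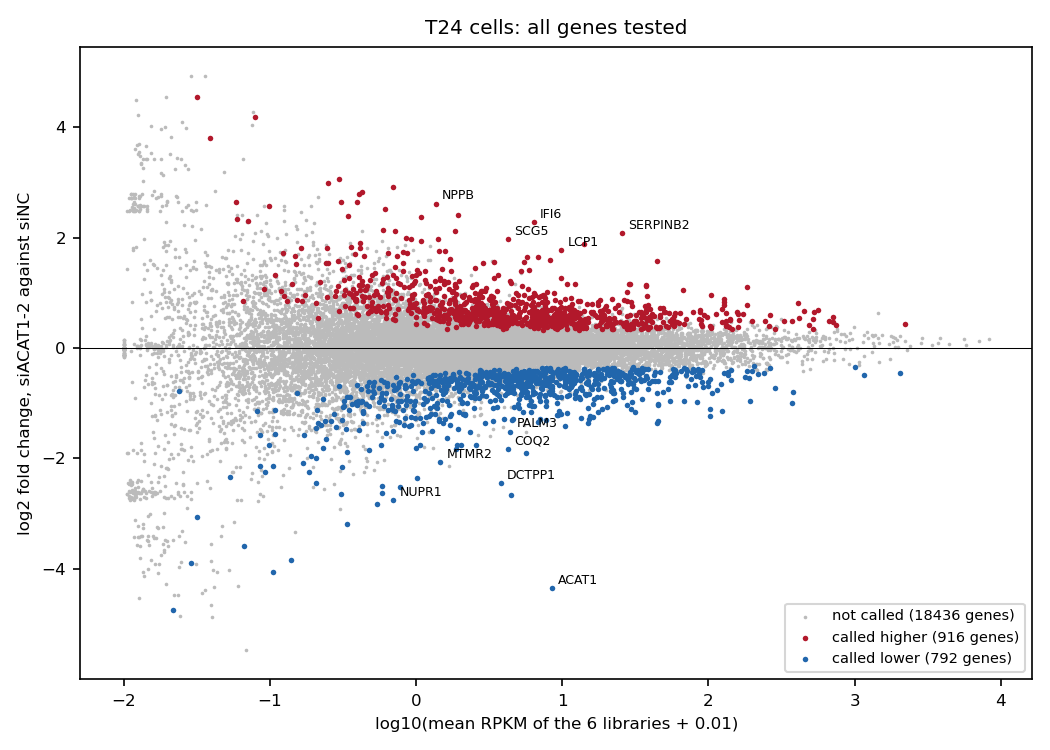
Each point is 1 of the 20144 genes tested in T24 cells, with log10 of its mean RPKM over the 6 libraries (plus 0.01) on the x axis and its log2 fold change, siACAT1-2 against siNC, on the y axis. Called genes are red (916 higher) or blue (792 lower), and ACAT1, at -4.34, lies below the other called genes of its level.

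The named genes with the largest falls included enzymes of nucleotide, lipid and coenzyme Q metabolism, an RNA-binding protein and noncoding RNAs. Several of them hold, in their 3′ UTRs, 7 bases that also occur in the ACAT1 coding sequence. This 7-mer, CTAGCAA, was the one of 1391 ACAT1 7-mers whose carriers had the lowest mean change with siACAT1-2 in UM-UC-3 cells, so no T24 library was used to choose it. Its sites in the largest falls are shown because the values that follow differ between genes that hold it and genes that do not. They are read from GENCODE v44 transcripts on the transcript strand, GRCh38, with the 7-mer in capitals and 7 bases on each side. The first line is in the coding sequence of ACAT1 and the others are in 3′ UTRs.
ACAT1, chr11:108146270-108146290, plus strand: ggttgtaCTAGCAAacattaa
DCTPP1, chr16:30423886-30423906, minus strand: ctggtttCTAGCAAattccca
MTMR2, chr11:95833761-95833781, minus strand: taagtggCTAGCAAatcagta
COQ2, chr4:83264041-83264061, minus strand: ttatttgCTAGCAAaattccc
CPD, chr17:30465552-30465572, plus strand: gagagatCTAGCAAaagctaa
HNRNPA0, chr5:137752848-137752868, minus strand: ttttataCTAGCAAaatgtct
HNRNPA0, chr5:137748472-137748492, minus strand: ggacagaCTAGCAAaaggcat
NUPR1, chr16:28537495-28537515, minus strand: tccaaccCTAGCAAaagtgca
NUPR1, chr16:28534551-28534571, minus strand: gaagaagCTAGCAAgaaacat
NUPR1, chr16:28533568-28533588, minus strand: ggccagcCTAGCAAcacagca
The canonical transcripts of CD83, CCNA1, ACTA2, RHPN1 and PALM3 hold none, and DDX39B-AS1 and CASC19 have no coding transcript to search. Lengths of the 3′ UTRs differed. They were 149 bases in ACTA2, 205 in CCNA1, 238 in PALM3, 1570 in RHPN1 and 1670 in CD83. Among the falls with sites they ran from 375 bases in COQ2 and 618 in DCTPP1 to 4975 in NUPR1, 5175 in CPD and 7498 in HNRNPA0. The part of length in these matches was not tested.

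DCTPP1, a pyrophosphatase that clears dCTP and related nucleotides, was at 9.48, 3.34 and 6.54 RPKM with siNC and at 1.65, 0.876 and 0.876 RPKM with siACAT1-2. No library overlapped between the groups (log2 fold change -2.45, SE 0.22, adjusted p = 1.14e-06), but 42.1% of its exon length is shared with the antisense gene ZNF771, and without the replicate block the adjusted p was 0.0633. MTMR2, a phosphoinositide phosphatase, was at 2.70, 2.20 and 2.14 RPKM and at 0.546, 0.505 and 0.602 RPKM. Its groups were tight and far apart (log2 fold change -2.06, SE 0.14, adjusted p = 3.31e-08). COQ2, the prenyltransferase of coenzyme Q synthesis, was at 6.002, 7.43 and 6.30 RPKM and at 1.96, 2.36 and 1.26 RPKM, again without overlap (log2 fold change -1.82, SE 0.16, adjusted p = 5.09e-07). CPD, a carboxypeptidase of the Golgi that trims proproteins, was at 1.68, 1.62 and 1.33 RPKM and at 0.349, 0.669 and 0.337 RPKM. That is a log2 fold change of -1.81 (SE 0.15, adjusted p = 4.88e-07).

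HNRNPA0, an RNA-binding protein that binds AU-rich elements, was at 3.25, 2.85 and 3.27 RPKM with siNC and at 1.03, 0.724 and 1.01 RPKM with siACAT1-2. The groups were again tight and far apart (log2 fold change -1.75, SE 0.13, adjusted p = 1.47e-07). CD83, a membrane protein of the immunoglobulin superfamily known from mature dendritic cells, was at 3.42, 5.62 and 2.96 RPKM and at 0.876, 1.30 and 1.28 RPKM (log2 fold change -1.75, SE 0.20, adjusted p = 2.72e-05). It is not on the list of markers of other cell types. DDX39B-AS1, a noncoding RNA antisense to a spliceosomal helicase gene, was at 1.88, 1.48 and 1.69 RPKM and at 0.457, 0.270 and 0.239 RPKM (log2 fold change -2.35, SE 0.43, adjusted p = 0.0019). Exons of DDX39B cover 17.6% of its length. ACAT1, MTMR2, COQ2, CPD, CD83, HNRNPA0 and DDX39B-AS1 were also called without the replicate block, and they and DCTPP1 were called in each of the 9 fits that left out 1 library or 1 replicate number.

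The remaining falls were less even between replicates. CCNA1, the cyclin A1 gene, was at 0.799, 1.74 and 2.29 RPKM with siNC and at 0.229, 0.473 and 0.761 RPKM with siACAT1-2, lower in each pair by a similar ratio (log2 fold change -1.75, SE 0.28, adjusted p = 0.000675). ACTA2, smooth muscle actin, was at 2.44, 1.07 and 3.92 RPKM and at 0.671, 0.537 and 1.01 RPKM (log2 fold change -1.62, SE 0.21, adjusted p = 9.35e-05). RHPN1, which encodes rhophilin 1, was at 1.11, 1.14 and 2.66 RPKM and at 0.412, 0.519 and 0.649 RPKM (log2 fold change -1.52, SE 0.24, adjusted p = 0.000566). Exons of ACTA2-AS1, antisense, cover 17.3% of ACTA2. In both genes every siACAT1-2 library was below every siNC library. PALM3, a membrane-associated paralemmin, was at 6.54, 1.82 and 11.9 RPKM and at 1.93, 1.12 and 3.16 RPKM, so that the groups overlapped through replicate 2 (log2 fold change -1.51, SE 0.20, adjusted p = 9.35e-05). These 4 calls were kept in each of the 9 fits with libraries left out and lost without the replicate block, where the adjusted p was 0.312, 0.116, 0.161 and 0.377 in the order given.

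NUPR1, a small stress-induced chromatin protein, was at 0.113, 2.93 and 0.616 RPKM with siNC and at 0.0607, 0.325 and 0.0888 RPKM with siACAT1-2. Its groups overlapped, and its largest difference was in replicate 2 (log2 fold change -2.75, SE 0.48, adjusted p = 0.00115). Without replicate 2 the log2 fold change was -2.17 (adjusted p = 0.0561), without siACAT1-2 replicate 2 it was -2.11 (adjusted p = 0.0516), and with limma on log2(RPKM + 0.5) it was -1.03 (adjusted p = 0.123). CASC19, a long noncoding RNA, was at 1.82, 5.41 and 3.21 RPKM and at 0.656, 1.65 and 1.20 RPKM (log2 fold change -1.51, SE 0.41, adjusted p = 0.0308). The call for CASC19 was lost in all 9 fits with libraries left out, at log2 fold changes of -1.62 to -1.42 and adjusted p of 0.0918 to 0.154.

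**Figure D2:**
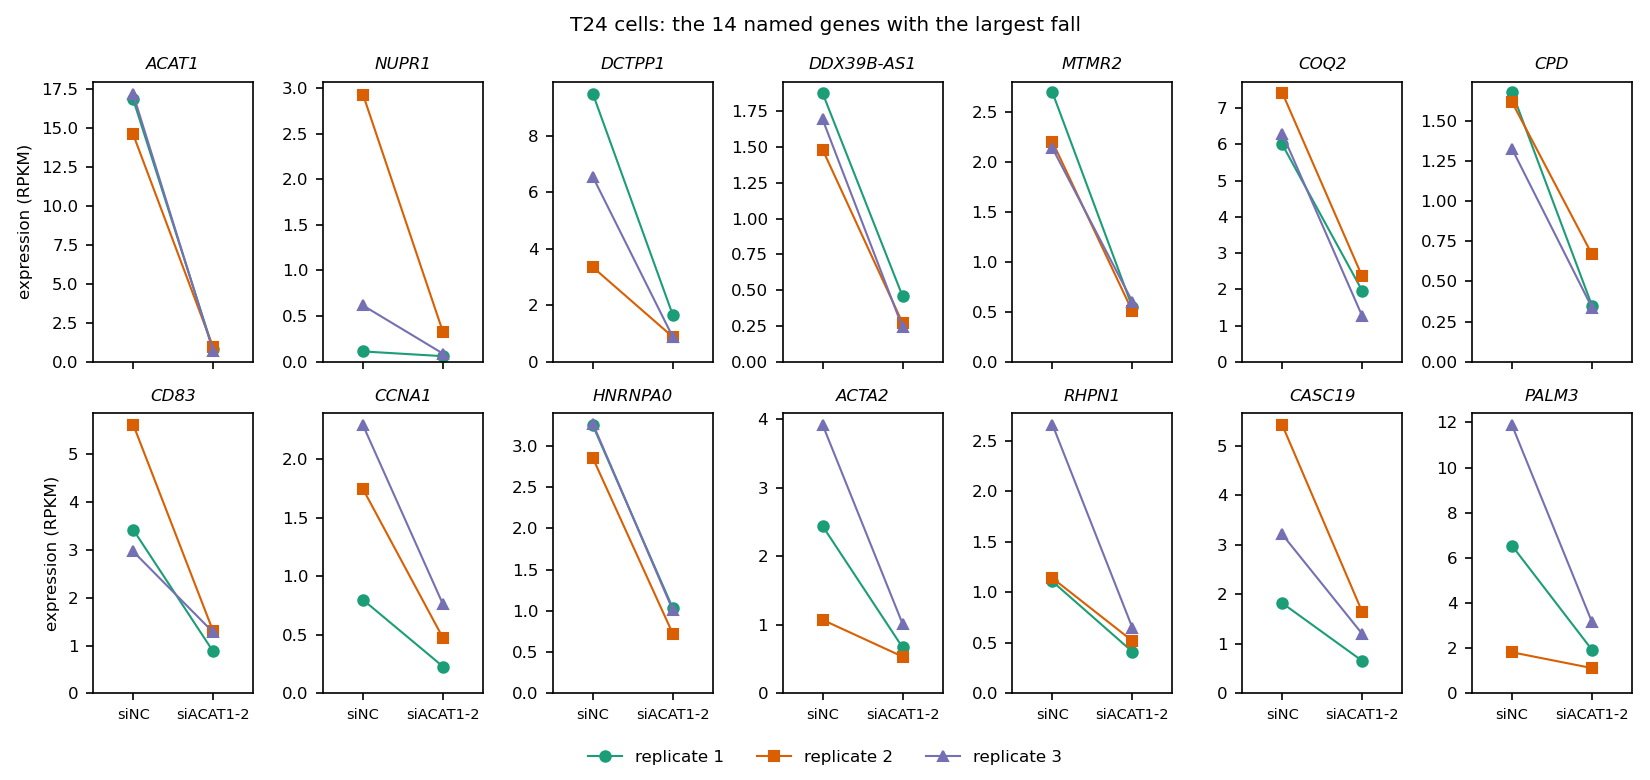
RPKM of the 14 named genes with the largest fall in T24 cells, 1 panel a gene with its own y axis from 0, for siNC and siACAT1-2; a line joins the libraries of 1 replicate number. Every line falls, as the naming rule requires, and in PALM3 and NUPR1 siACAT1-2 libraries reach the range of the siNC libraries.

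The share of genes that hold the 7-mer was higher among the genes that fell than among all genes. Of 12920 tested genes with a 3′ UTR in GENCODE v44, 7.52% held CTAGCAA. It was in the 3′ UTR of 23.6% of the 605 such genes called lower in T24 cells and of 4.39% of the 775 called higher. Among the 98 called lower by more than 1 on the log2 scale the share was 37.8%, with a median 3′ UTR length of 1568 bases. The median 3′ UTR length was 1440 bases for genes called lower, 1298 for genes called higher and 1319 for all genes. In T24 cells with siACAT1-2 the median log2 fold change was -0.10 over the 971 genes with the 7-mer and 0.04 over the genes without it. With siACAT1-1 it was 0.08 over the genes with it. Among the 1135 genes called lower with siACAT1-1 in T24 cells, 5.37% held it, with a median 3′ UTR length of 877 bases. With matches of 6 bases the lowest-ranked was TAGCAA, which lies within the 7-mer, and the shares were 47.3% of genes called lower, 22.6% of genes called higher and 28.9% of all genes. A match of these letters is a description and not a shown binding site, and the siRNA sequences were not used here.

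**Figure D3:**
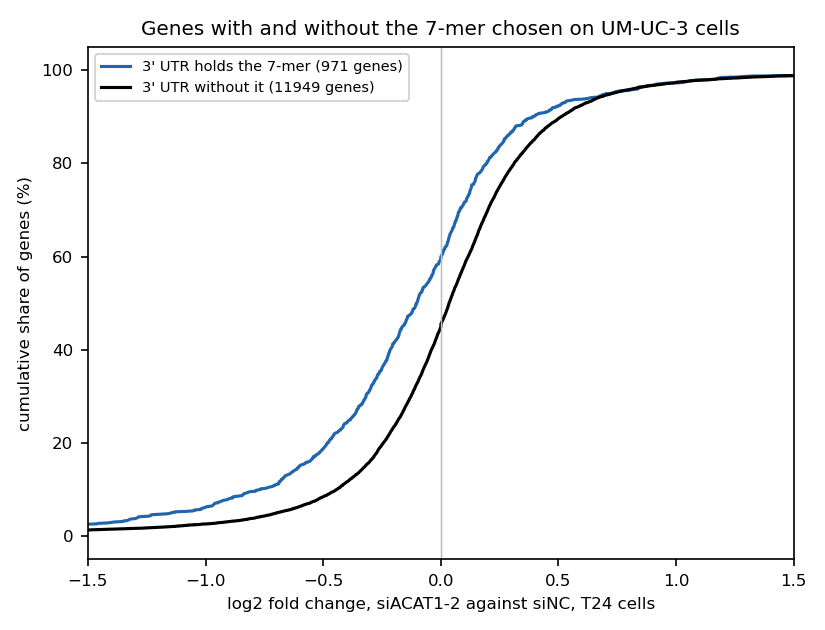
Cumulative share of genes (y axis, %) up to a given log2 fold change with siACAT1-2 in T24 cells (x axis, from -1.5 to 1.5), for genes whose 3′ UTR holds the 7-mer (blue, 971 genes) and genes without it (black). The blue curve lies above and to the left of the black one from -1.5 up to 0.5, with medians of -0.10 and 0.04.

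UM-UC-3 cells share no library with the T24 comparison. There siACAT1-2 changed 273 genes in the same fit (1.36% of those tested), 128 higher and 145 lower. Both lines called 162 genes, which is 9.49% of the T24 calls and 59.3% of the UM-UC-3 calls, and 160 of them moved the same way, 107 lower and 53 higher. Of the 14 largest falls in T24 cells, 7 also fell in UM-UC-3 cells and 1 of the 14 largest rises also rose. ACAT1 fell there by 4.48 on the log2 scale (SE 0.17), DCTPP1 by 1.89 (SE 0.25), MTMR2 by 1.46 (SE 0.13), CPD by 1.38 (SE 0.15), COQ2 by 1.35 (SE 0.15), HNRNPA0 by 1.21 (SE 0.13) and CD83 by 0.97 (SE 0.20). The 87 genes with a 3′ UTR that fell in both lines held the 7-mer in 58.6% of cases, a share that is not independent of its choice on UM-UC-3 values. Their median 3′ UTR length was 1873 bases, against 1319 for all genes.

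The effect itself differed between the lines for 26 genes (0.129% of those tested, with 1647 at an unadjusted p under 0.05), and 0 were called by edgeR without the replicate block. Among the named genes these were RHPN1, ACTA2 and PALM3, whose log2 fold changes in UM-UC-3 cells were 0.39 (SE 0.26), 0.08 (SE 0.21) and -0.16 (SE 0.17). The pair of genes called in opposite directions was KRT8, a keratin of simple epithelia, and PRSS23, a serine protease, both named because of these values. KRT8 was at 310.5, 116.8 and 323.9 RPKM with siNC and at 435.4, 143.4 and 370.8 RPKM with siACAT1-2 in T24 cells (log2 fold change 0.35, SE 0.10, adjusted p = 0.0364). In UM-UC-3 cells it went from 40.6 ± 4.64 to 29.9 ± 1.38 RPKM (SD, n = 3; log2 fold change -0.48, SE 0.10, adjusted p = 0.0196). PRSS23 had a log2 fold change of 0.41 (SE 0.12, adjusted p = 0.0409) in T24 cells and -0.49 (SE 0.12, adjusted p = 0.0431) in UM-UC-3 cells.

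siACAT1-1 and siACAT1-2 were set side by side in T24 cells, where their comparisons with siNC share the control libraries. Tested directly against each other, the siRNAs differed for 2958 genes (14.7% of those tested), and for 195 without the replicate block. ACAT1 was at 1.24, 1.46 and 1.17 RPKM with siACAT1-1, and was lower with siACAT1-2 by a log2 difference of -0.70 (SE 0.17, adjusted p = 0.00932). MTMR2 was at 5.17, 3.15 and 3.90 RPKM with siACAT1-1, above its siNC libraries, and the log2 difference between the siRNAs was -2.85 (SE 0.14, adjusted p = 1.49e-10). For CPD it was -2.22 (SE 0.15, adjusted p = 4.16e-08), for DCTPP1 -2.20 (SE 0.23, adjusted p = 6.1e-06), for CD83 -1.95 (SE 0.20, adjusted p = 6.42e-06) and for HNRNPA0 -1.69 (SE 0.14, adjusted p = 1.81e-07). CCNA1 differed the other way: it was at 0.0616, 0.166 and 0.53 RPKM with siACAT1-1, and the log2 difference was 1.05 (SE 0.34, adjusted p = 0.0418). ACTA2 and PALM3 were low with both siRNAs, with log2 differences of -0.43 (SE 0.22, adjusted p = 0.203) and 0.08 (SE 0.21, adjusted p = 0.848).

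The largest rises included genes of secretion, of protease inhibition and of myeloid cells, several of them at low levels in replicates 1 and 3 with siNC. PTBP2, a splicing regulator best known in neurons, was the most even. It was at 0.413, 0.324 and 0.375 RPKM with siNC and at 1.62, 0.977 and 1.80 RPKM with siACAT1-2 (log2 fold change 1.97, SE 0.18, adjusted p = 1.34e-06), and was also called without the replicate block and in UM-UC-3 cells (log2 fold change 0.94, SE 0.17, adjusted p = 0.00552). SLC22A3, an organic cation transporter, was at 0.243, 0.445 and 0.128 RPKM and at 0.894, 1.62 and 0.912 RPKM, without overlap (log2 fold change 2.13, SE 0.31, adjusted p = 0.000261). SCG5, the chaperone of a prohormone convertase, was at 1.16, 3.91 and 0.796 RPKM and at 7.13, 8.30 and 4.01 RPKM (log2 fold change 1.97, SE 0.30, adjusted p = 0.000349). The lowest siACAT1-2 library of SCG5 was just above the highest siNC library. Both calls were kept in each of the 9 fits with libraries left out, and lost without the block (adjusted p = 0.122 and 0.325).

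NPPB, which encodes B-type natriuretic peptide, was at 0.796, 0.307 and 0.103 RPKM with siNC and at 3.22, 2.10 and 1.59 RPKM with siACAT1-2 (log2 fold change 2.62, SE 0.54, adjusted p = 0.00603). It was listed at 0 in all 6 UM-UC-3 libraries with siNC or siACAT1-2. The log2 fold change was 2.28 without siNC replicate 3 (adjusted p = 0.0512) and 2.27 without replicate 3 (adjusted p = 0.0834). CARD16, an inhibitor of caspase-1, was at 0.241, 0.526 and 0.338 RPKM and at 1.43, 0.820 and 1.44 RPKM (log2 fold change 1.74, SE 0.32, adjusted p = 0.00192). Neither gene overlapped between the groups. The call for CARD16 was lost without replicate 1 (1.32, adjusted p = 0.0712) and without replicate 3 (1.54, adjusted p = 0.0502).

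A group of rises had replicate 2 far above the other replicates in both groups. SERPINB2, plasminogen activator inhibitor 2, was at 1.10, 49.7 and 0.935 RPKM with siNC and at 6.71, 84.4 and 9.82 RPKM with siACAT1-2. It rose within each replicate number, by 2.63, 0.76 and 3.41 on the log2 scale, while the groups overlapped (log2 fold change 2.08, SE 0.32, adjusted p = 0.000486). SERPINB10, its neighbour in the serpin cluster of chromosome 18, shares 20.3% of its exon length with it on the same strand (19.9% of that of SERPINB2), so both values are uncertain (0.667, 27.6 and 0.621 RPKM, then 3.70, 46.4 and 5.29 RPKM, log2 fold change 1.89, SE 0.32, adjusted p = 0.00143). LINC00520, a long noncoding RNA, was at 0.0472, 1.37 and 0 RPKM and at 0.252, 4.41 and 0.332 RPKM (log2 fold change 2.37, SE 0.47, adjusted p = 0.00438). These 3 calls were kept in each of the 9 fits with libraries left out and lost without the block, where the adjusted p was 0.928, 0.938 and 0.819 in the order given.

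LCP1, the actin-bundling protein L-plastin of leukocytes, was at 1.33, 19.7 and 1.20 RPKM with siNC and at 8.02, 21.5 and 7.23 RPKM with siACAT1-2 (log2 fold change 1.78, SE 0.32, adjusted p = 0.00194). Its replicate 2 libraries hardly differed, with a log2 difference of 0.13, and the call was lost without replicate 1 (1.31, adjusted p = 0.0718) and without replicate 3 (1.34, adjusted p = 0.0662). PI3, the elastase inhibitor elafin, was at 0.101, 1.97 and 0.124 RPKM and at 0.716, 5.05 and 0.546 RPKM (log2 fold change 1.77, SE 0.52, adjusted p = 0.0434). LYPD3, a GPI-anchored protein of squamous epithelia, was at 0.0692, 0.958 and 0.198 RPKM and at 0.656, 1.18 and 2.02 RPKM (log2 fold change 2.00, SE 0.48, adjusted p = 0.0165). DEFB103B, a beta-defensin gene with a near-identical copy between which reads may be split, was at 0, 2.33 and 0 RPKM and at 0.266, 8.64 and 0.365 RPKM (log2 fold change 2.41, SE 0.67, adjusted p = 0.0341). The last 3 calls were lost in 9, 6 and 8 of the 9 fits with libraries left out, with adjusted p of up to 0.243, 0.274 and 0.136. LYPD3 kept its call only when siNC replicate 2, siACAT1-2 replicate 2 or both were left out, and DEFB103B only without siACAT1-2 replicate 2.

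**Figure D4:**
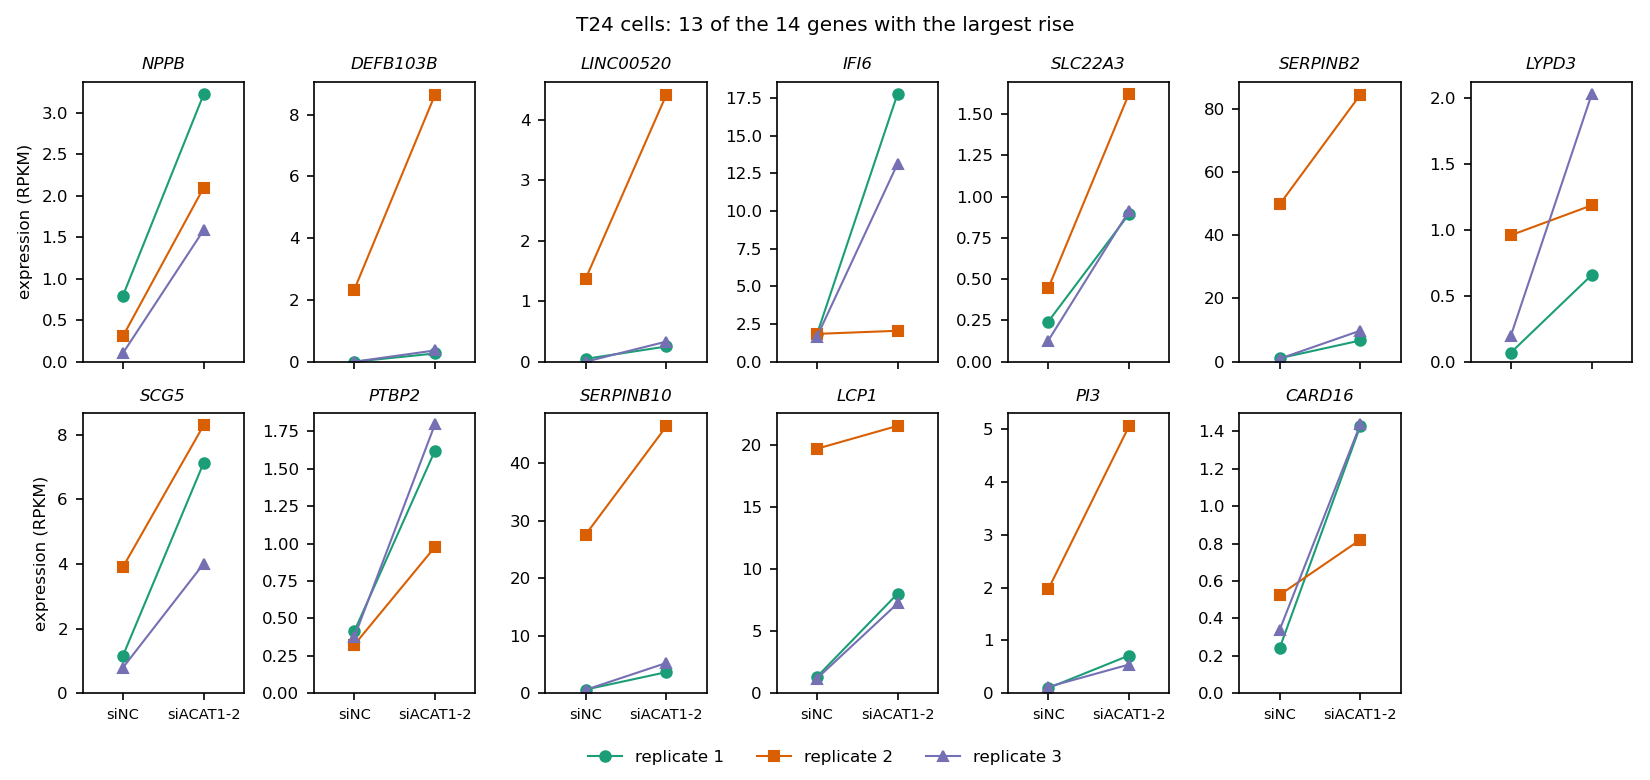
RPKM of 13 of the 14 genes with the largest rise in T24 cells, 1 panel a gene with its own y axis from 0, for siNC and siACAT1-2; a line joins the libraries of 1 replicate number. Every line rises, as the naming rule requires. In SERPINB2, SERPINB10, LCP1, PI3, LINC00520 and DEFB103B both replicate 2 libraries lie above those of replicates 1 and 3, as at 49.7 and 84.4 RPKM in SERPINB2.

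Mitosis was the list with the most calls. Of 36 mitosis and spindle genes tested, 24 fell and none rose (66.7% called, against 8.48% of all genes), all 36 had a negative log2 fold change, and the median was -0.60 against 0.01 over all genes. The median was -0.49, -1.14 and -0.19 within replicates 1, 2 and 3. KIF20A, a kinesin of cytokinesis, was at 27.2, 7.05 and 26.6 RPKM with siNC and at 12.8, 1.47 and 16.9 RPKM with siACAT1-2 (log2 fold change -1.29, SE 0.23, adjusted p = 0.00174). CDC20, an activator of the anaphase-promoting complex, was at 29.7, 14.8 and 25.2 RPKM and at 16.3, 3.38 and 15.2 RPKM (log2 fold change -1.16, SE 0.18, adjusted p = 0.000582). AURKA, the Aurora A kinase of the spindle poles, was at 21.7, 15.1 and 21.1 RPKM and at 13.1, 3.41 and 14.9 RPKM (log2 fold change -1.08, SE 0.20, adjusted p = 0.00213). In all 3 genes each siACAT1-2 library was below the siNC library of its number, and the ratio was largest in replicate 2. MKI67, CCNB1, CENPE, CCNB2, TOP2A, BIRC5 and CDK1 also fell, by 0.60 to 0.96 on the log2 scale. In bulk RNA, fewer cells in mitosis and fewer of these transcripts per cell cannot be told apart. Without the replicate block no member was called, without replicate 2 there were 13, without siNC replicate 1 there were 13 and without siACAT1-2 replicate 2 there were 14. With siACAT1-1 in T24 cells, against the same siNC libraries, 35 of the 36 fell and none rose (median -0.90). Of 12920 tested genes with a 3′ UTR in GENCODE v44, 1135 were called lower with siACAT1-1. The 8.48% above is the share with siACAT1-2. In UM-UC-3 cells 3 fell with siACAT1-2 and none rose (median -0.27).

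Fewer genes of the earlier steps of the cell cycle were called. Of 30 genes of DNA synthesis and nucleotide supply 29 had a negative value (median -0.33). Among the 30, 5 fell and none rose (16.7% called, against 8.48% of all genes). Besides DCTPP1 they included the polymerase subunits POLA1 (-0.73, SE 0.18, adjusted p = 0.0152) and POLD2 (-0.60, SE 0.17, adjusted p = 0.029), and the thymidine kinase TK1 (-0.54, SE 0.17, adjusted p = 0.048). Of 23 genes that license and fire origins 4 fell, GINS3, MCM10, CDC7 and MCM4, and none rose (17.4% called, median -0.26). GINS3, a subunit of the replicative helicase, was at 2.81, 2.59 and 2.75 RPKM and at 1.48, 1.22 and 1.40 RPKM, without overlap (log2 fold change -0.97, SE 0.15, adjusted p = 0.000608). Of 26 regulators of the G1 to S step 4 fell and none rose (15.4% called, median -0.02). They were the kinase CDK6 (2.32, 2.09 and 1.55 RPKM, then 1.14, 0.924 and 0.973 RPKM, log2 fold change -0.95, SE 0.15, adjusted p = 0.000566), the activator E2F3 (-0.62, SE 0.13, adjusted p = 0.00545), the p107 gene RBL1 (-0.53, SE 0.16, adjusted p = 0.041) and CDKN2A (-0.54, SE 0.13, adjusted p = 0.0197), which encodes the inhibitor p16. POLA1 lost its call in 4 of the 9 fits with libraries left out (adjusted p up to 0.235), MCM10 in 6 (up to 0.171), CDC7 in 2 (up to 0.0774) and E2F3 in 2 (up to 0.0765). CDK6 differed from siACAT1-1, with a log2 difference of -1.31 (SE 0.15, adjusted p = 1.8e-05).

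Of the genes the study followed by immunoblot or PCR, 24 were listed for the comparison, of which 23 were tested and CDH1 was not, its counts being too low. Of the 23, 4 fell (CDC20, CDK6, CDKN2A and MCM4), none rose and 19 were not called. Of all genes tested, 8.48% were called. CDKN2A lost its call in 8 of the 9 fits with libraries left out (adjusted p up to 0.132) and MCM4 in 7 (up to 0.286). The study also measured DCTPP1, POLD2, TMEM97 and CBX3, which were not on that list. DCTPP1 and POLD2 fell, and TMEM97 (-0.37, SE 0.19, adjusted p = 0.268) and CBX3 (-0.28, SE 0.11, adjusted p = 0.122) were not called. The paper also states that CDK1 and cyclins A and B were largely unaffected, and these too were not on the list. The RNAs of CDK1, CCNB1, CCNB2 and CCNA1 were called lower here. After the knockdown the paper reports less CDK6 protein and more p16 protein by immunoblot, and less CDC20 and MCM4 RNA by qRT-PCR. CDKN2A, which encodes p16, was lower here in RNA. MYC was at 9.69, 32.6 and 14.4 RPKM with siNC and at 9.79, 19.7 and 11.3 RPKM with siACAT1-2 (log2 fold change -0.34, SE 0.23, adjusted p = 0.394). E2F1 had a log2 fold change of -0.12 (SE 0.16, adjusted p = 0.696), CDK2 0.07 (SE 0.15, adjusted p = 0.852), CDK4 -0.27 (SE 0.12, adjusted p = 0.174, with 43.2% of its exon length shared with the antisense gene TSPAN31), CCND1 -0.30 (SE 0.13, adjusted p = 0.152) and CCNE1 0.49 (SE 0.19, adjusted p = 0.122). The inhibitors CDKN1A and CDKN1B were at 0.52 (SE 0.24, adjusted p = 0.195) and -0.33 (SE 0.14, adjusted p = 0.159). A member that was not called may still have changed by less than these errors can show. AKT1 (-0.15, SE 0.11, adjusted p = 0.456) and GSK3B (0.12, SE 0.12, adjusted p = 0.632) were not called, and of 22 genes of AKT and GSK3 signaling only RPS6KB1, the S6 kinase, fell (-0.42, SE 0.13, adjusted p = 0.0478; median of the list 0.08). That is 4.55% of the list, under the 8.48% of all genes, and the call was lost in all 9 fits with libraries left out (adjusted p from 0.0602 to 0.179). With siACAT1-1 in T24 cells RPS6KB1 was called the other way, higher than with siNC (0.53, SE 0.13, adjusted p = 0.00844).

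Of 25 lysosome and autophagy genes 15 rose, none fell and 10 were not called (60% called, against 4.55% of all genes called higher), with a median of 0.52 and within-replicate medians of 0.74, 0.34 and 0.53. CTSB, the lysosomal protease cathepsin B, was at 22.4, 34.9 and 29.5 RPKM with siNC and at 42.6, 51.9 and 49.8 RPKM with siACAT1-2. It did not overlap between the groups (log2 fold change 0.77, SE 0.10, adjusted p = 0.000121). ATP6V0D1, a subunit of the proton pump that acidifies the lysosome, was at 1.96, 2.36 and 1.59 RPKM and at 3.46, 3.60 and 2.91 RPKM (log2 fold change 0.80, SE 0.16, adjusted p = 0.00344). The call for ATP6V0D1 was lost without replicate 1 (0.74, adjusted p = 0.0581) and without replicate 3 (0.71, adjusted p = 0.0594). The cathepsins CTSA, CTSD and CTSL rose by 0.60 to 0.72, and the membrane proteins LAMP1, LAMP2 and CD63 by 0.47 to 0.52. CD68, a protein of the same membranes, rose as well (15.7, 120.9 and 16.3 RPKM, then 36.6, 168.8 and 41.5 RPKM, log2 fold change 1.05, SE 0.14, adjusted p = 0.000121). It was the 1 called gene of 8 tested markers of other cell types. The summed level of all 24 markers of that list found in the table was 20.5 to 125.8 RPKM with siNC and 42.4 to 173.2 RPKM with siACAT1-2. Of the exon length of CD68, 81.7% is shared with the same-strand gene RP11-186B7.4. The part of these markers in the lysosome result was not tested. Without siNC replicate 1 there were 9 calls in the lysosome list, without replicate 1 there were 5 and without replicate 3 there were 7, against 15 without replicate 2 and 1 without the replicate block. In UM-UC-3 cells no member was called (median 0.26). With siACAT1-1 in T24 cells, against the same siNC libraries, 12 of the 25 rose and none fell (median 0.40). How many of all genes rose with siACAT1-1 was not counted here, and the 4.55% above belongs to siACAT1-2.

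Of 46 interferon-response genes tested 10 rose, none fell and 36 were not called (21.7% called, against 4.55% of all genes called higher), with a median of 0.41. The median was 0.56 and 0.54 within replicates 1 and 3 and -0.00086 within replicate 2. IFI6, a mitochondrial protein induced by interferon, was at 1.81, 1.85 and 1.65 RPKM with siNC and at 17.8, 2.05 and 13.1 RPKM with siACAT1-2 (log2 fold change 2.28, SE 0.45, adjusted p = 0.00296). Its replicate 2 libraries were close to each other. IFI27 was at 1.89, 3.36 and 2.67 RPKM and at 11.98, 5.33 and 8.90 RPKM (log2 fold change 1.66, SE 0.27, adjusted p = 0.000803). GBP2, a guanylate-binding GTPase, was at 0.917, 2.30 and 0.977 RPKM and at 4.46, 2.53 and 4.01 RPKM (log2 fold change 1.45, SE 0.28, adjusted p = 0.00266), and was also called in UM-UC-3 cells (1.36, SE 0.33, adjusted p = 0.044). OAS1, IRF9, SAMD9L, IFIT3, ISG15, HLA-B and DDX60 rose by 0.55 to 1.23. IFI6 lost its call without siNC replicate 1 (1.79, adjusted p = 0.0761), without replicate 1 (1.56, adjusted p = 0.148), without siNC replicate 3 (1.73, adjusted p = 0.0589) and without replicate 3 (1.86, adjusted p = 0.0562), and GBP2 lost its call without siNC replicate 1 (1.08, adjusted p = 0.0521), without replicate 1 (1.00, adjusted p = 0.0995) and without replicate 3 (1.13, adjusted p = 0.0794). The count was 2 without siNC replicate 1, 1 without replicate 1, 3 without siNC replicate 3, 5 without siACAT1-2 replicate 3, 1 without replicate 3, 0 without the replicate block and 15 without replicate 2. With siACAT1-1 in T24 cells, against the same siNC libraries, 17 of the 46 rose and none fell (median 0.45). The share of all genes that rose with siACAT1-1 was not counted here, and the 4.55% above belongs to siACAT1-2. In UM-UC-3 cells 8 rose with siACAT1-2 and none fell (median 0.51). Transcripts of the RNA interference machinery were not called (0 of 13, median -0.00).

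Of 29 inflammatory cytokines and NF-κB targets 5 rose and none fell (17.2% called, against 8.48% of all genes, median 0.36). IL6 was at 1.53, 100.4 and 2.84 RPKM with siNC and at 8.65, 140.4 and 12.3 RPKM with siACAT1-2 (log2 fold change 1.58, SE 0.26, adjusted p = 0.00066). ICAM1, an adhesion molecule for leukocytes, was at 6.99, 42.9 and 11.2 RPKM and at 13.8, 58.7 and 33.5 RPKM (log2 fold change 1.01, SE 0.16, adjusted p = 0.000608). CSF1, the macrophage growth factor, was at 0.922, 2.15 and 1.29 RPKM and at 2.03, 3.15 and 2.74 RPKM (log2 fold change 0.94, SE 0.16, adjusted p = 0.0011). All 3 genes rose within each replicate number while the siNC library of replicate 2 exceeded siACAT1-2 libraries of replicates 1 or 3. CSF3 and IL1B rose by 0.94 (SE 0.19) and 0.84 (SE 0.21). Within replicate 2 the median of the list was -0.21.

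Among mesenchymal and epithelial markers more members were called higher than lower. Of 34 tested 11 rose, 1, ACTA2, fell and 22 were not called (35.3% called, against 8.48% of all genes; median 0.31, and 0.35, 0.08 and 0.32 within replicates 1, 2 and 3). TAGLN, an actin-binding protein of smooth muscle, was at 3.08, 5.76 and 1.99 RPKM with siNC and at 13.9, 8.61 and 7.45 RPKM with siACAT1-2, without overlap (log2 fold change 1.65, SE 0.26, adjusted p = 0.000517). TGFBI, a matrix protein induced by TGF-β, stayed below 1 RPKM (0.190, 0.0909 and 0.164, then 0.820, 0.146 and 0.689 RPKM, log2 fold change 1.84, SE 0.22, adjusted p = 3.38e-05). FN1, SPARC, MMP14, COL6A1, COL6A2 and LOXL2, all of the matrix or its turnover, rose by 0.42 to 0.87, and the integrin ITGB1 by 0.71 (SE 0.096). The epithelial keratin KRT8 rose as well. VIM was at 210.6, 178.9 and 271.3 RPKM and at 328.3, 193.6 and 324.6 RPKM (log2 fold change 0.37, SE 0.12, adjusted p = 0.0653), and CDH2 had a log2 fold change of 0.13 (SE 0.11, adjusted p = 0.545), SNAI2 0.46 (SE 0.22, adjusted p = 0.205) and MMP9 0.02 (SE 0.40, adjusted p = 1). SNAI1 was at 0 to 0.1685 RPKM. CDH2 and VIM were higher with siACAT1-2 than with siACAT1-1, by 0.97 (SE 0.12, adjusted p = 2.79e-05) and 0.86 (SE 0.12, adjusted p = 0.000137). TAGLN was not called with siACAT1-1 (-0.19, SE 0.26, adjusted p = 0.693), and the siRNAs differed by 1.84 (SE 0.26, adjusted p = 0.000152). The list held 4 genes called higher without siNC replicate 1, 6 without siACAT1-2 replicate 1, 4 without replicate 1, 5 without siNC replicate 3, 6 without siACAT1-2 replicate 3, 4 without replicate 3 and 11 without replicate 2, and 1 without the replicate block. The other comparisons did not share this direction. With siACAT1-1 in T24 cells, against the same siNC libraries, 4 of the 34 rose and 7 fell (median -0.10). In UM-UC-3 cells 1 rose with siACAT1-2 and 2 fell (median 0.11).

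**Figure D5:**
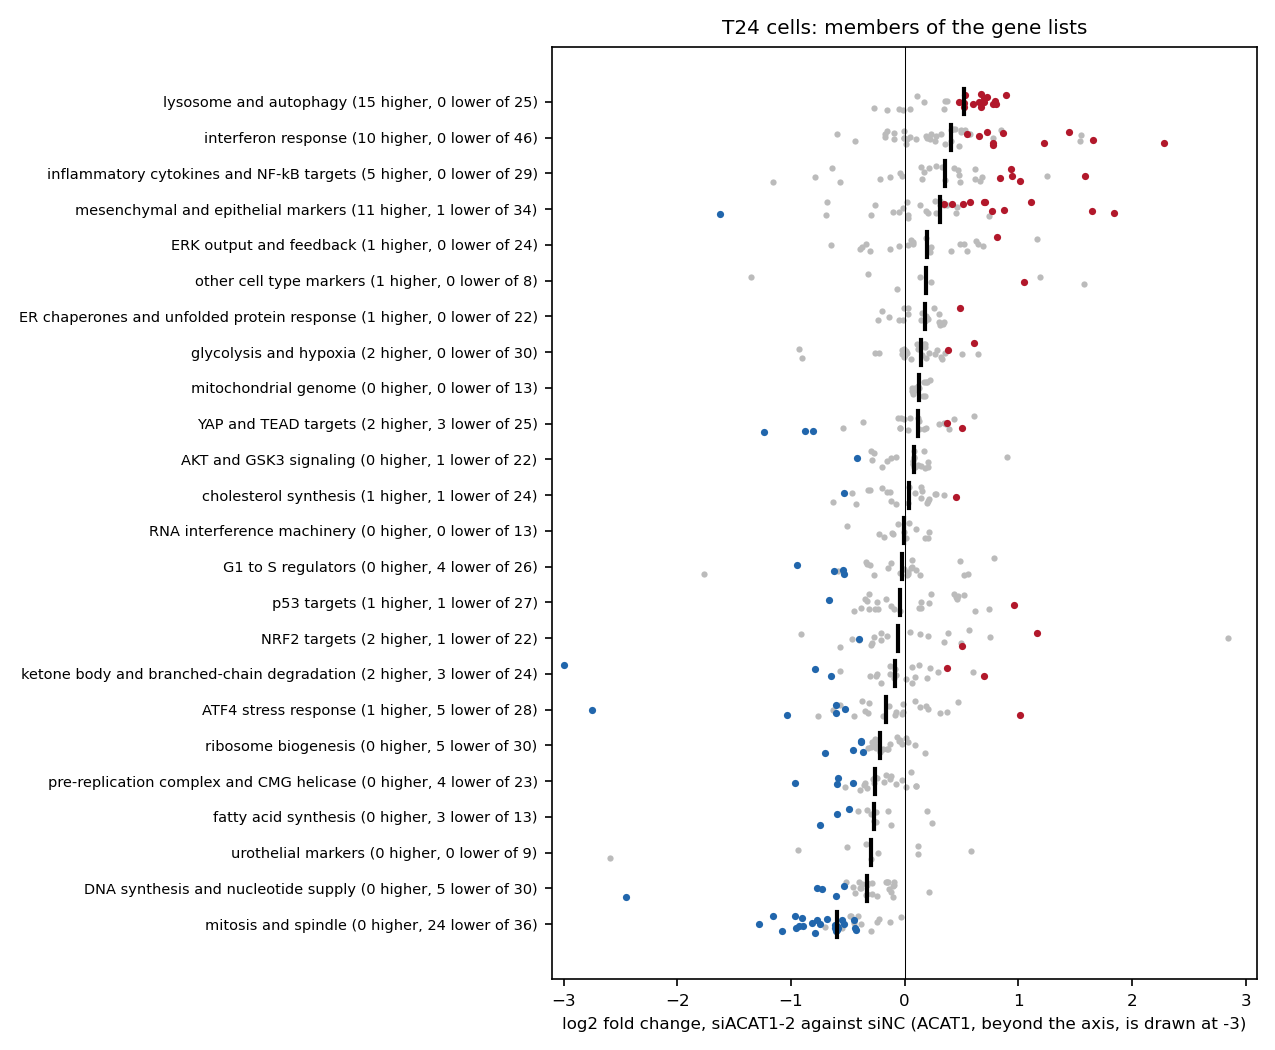
Log2 fold change with siACAT1-2 in T24 cells (x axis) of each tested member of the 24 gene lists (rows, ordered by median), with called members in red (higher) or blue (lower), others in grey and the list median as a black bar; vertical position within a row is random, and ACAT1 is drawn at -3. Mitosis and spindle (24 lower of 36, median -0.60) and lysosome and autophagy (15 higher of 25, median 0.52) are at the ends.

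Of 24 genes of ketone body and branched-chain amino acid degradation, the pathways of ACAT1, 3 fell with ACAT1 included and 2 rose (20.8% called, against 8.48% of all genes; median -0.08). BCKDHA, a subunit of the branched-chain ketoacid dehydrogenase, was at 2.84, 2.73 and 3.98 RPKM with siNC and at 1.59, 2.28 and 1.59 RPKM with siACAT1-2 (log2 fold change -0.79, SE 0.17, adjusted p = 0.00534), although 63.8% of its exon length is shared with the same-strand gene CTC-435M10.3. HSD17B10, of isoleucine breakdown, fell by 0.65 (SE 0.16, adjusted p = 0.012). ACAA2, another mitochondrial thiolase, rose from 2.05, 2.69 and 2.57 RPKM to 3.87, 3.68 and 4.01 RPKM, without overlap (log2 fold change 0.70, SE 0.14, adjusted p = 0.00463), and the dehydrogenase ACADM rose by 0.37 (SE 0.11, adjusted p = 0.035). Of 13 genes of fatty acid synthesis 3 fell and none rose (23.1% called, median -0.27). They were the synthase FASN (6.23, 3.04 and 4.55 RPKM, then 3.05, 2.10 and 2.81 RPKM, log2 fold change -0.75, SE 0.17, adjusted p = 0.00901) and the desaturases FADS2 (-0.59, SE 0.15, adjusted p = 0.0173) and FADS1 (-0.49, SE 0.11, adjusted p = 0.00895). Of 24 genes of cholesterol synthesis, which also uses acetoacetyl-CoA, IDI1 fell (-0.54, SE 0.13, adjusted p = 0.0163) and LSS rose (0.46, SE 0.13, adjusted p = 0.0317). That is 8.33% of the list, near the 8.48% of all genes. Of 30 genes of glycolysis and hypoxia PGK1 (0.38, SE 0.12, adjusted p = 0.0483) and PDK1 (0.61, SE 0.19, adjusted p = 0.0497) rose (6.67% called, under the 8.48% of all genes), with a median of 0.14. The 13 genes of the mitochondrial genome had a median of 0.13, and none was called. Several of these calls were lost when a library or replicate number was left out: PDK1 in 9 of 9 such fits (adjusted p up to 0.288), PGK1 in 8 (up to 0.361), LSS in 7 (up to 0.374), FADS2 in 6 (up to 0.176), FASN in 5 (up to 0.131), FADS1 in 5 (up to 0.119), BCKDHA in 4 (up to 0.124), IDI1 in 4 (up to 0.109) and ACAA2 in 3 (up to 0.0968).

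Serine synthesis and its regulator's targets fell in part. Of 28 genes of the ATF4 stress response 5 fell and 1 rose (21.4% called, against 8.48% of all genes, median -0.16). Besides NUPR1 they were PSAT1, PSPH and PHGDH, the 3 enzymes of serine synthesis, and SHMT2, which splits serine to glycine in mitochondria. PSAT1 was at 31.6, 62.7 and 87.2 RPKM with siNC and at 12.3, 44.8 and 33.1 RPKM with siACAT1-2 (log2 fold change -1.04, SE 0.22, adjusted p = 0.00605), and also fell in UM-UC-3 cells (-0.92, adjusted p = 0.0471). It lost its call in 5 of the 9 fits with libraries left out, with adjusted p of up to 0.106. With siACAT1-1 in T24 cells PSAT1 was at 0.14 (SE 0.22, adjusted p = 0.743), and the log2 difference between the siRNAs was -1.175 (SE 0.23, adjusted p = 0.00174). VLDLR, a lipoprotein receptor, rose with siACAT1-2 (0.436, 1.12 and 1.26 RPKM, then 1.18, 1.87 and 2.29 RPKM, log2 fold change 1.01, SE 0.16, adjusted p = 0.000517). Of 30 ribosome biogenesis genes 5 fell and none rose (16.7% called, median -0.22), among them the helicase DDX21 (-0.70, SE 0.18, adjusted p = 0.0204), GNL3 (-0.45, SE 0.12, adjusted p = 0.0187) and NOP56 (-0.38, SE 0.12, adjusted p = 0.0431). They lost their calls in 3, 7 and 8 of the 9 fits with libraries left out, with adjusted p of up to 0.261, 0.0864 and 0.252. With siACAT1-1 in T24 cells NOP56 fell too (-0.48, SE 0.12, adjusted p = 0.00858). DDX21 (0.22, SE 0.18, adjusted p = 0.465) and GNL3 (-0.11, SE 0.12, adjusted p = 0.567) were not called with siACAT1-1.

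The targets of YAP and TEAD moved both ways, 3 lower and 2 higher of 25 (20% called, against 8.48% of all genes, median 0.12). ASAP1, an ARF GTPase-activating protein, was at 26.6, 15.8 and 23.6 RPKM with siNC and at 7.24, 8.85 and 11.1 RPKM with siACAT1-2, without overlap (log2 fold change -1.24, SE 0.15, adjusted p = 4.57e-05). AXL, a receptor tyrosine kinase, was at 33.2, 27.9 and 38.8 RPKM and at 15.8, 20.1 and 20.2 RPKM (log2 fold change -0.81, SE 0.11, adjusted p = 0.000193). AJUBA, a LIM protein that inhibits LATS kinases, was at 9.14, 7.36 and 10.8 RPKM and at 4.82, 4.86 and 4.69 RPKM (log2 fold change -0.88, SE 0.16, adjusted p = 0.00178). These 3 genes did not overlap between the groups and kept their calls in each of the 9 fits with libraries left out. ASAP1 and AXL also fell in UM-UC-3 cells, by 1.12 (SE 0.15, adjusted p = 0.000253) and 0.64 (adjusted p = 0.00552). With siACAT1-1 in T24 cells AXL fell too (-0.42, SE 0.11, adjusted p = 0.0162), while ASAP1 was at 0.13 (SE 0.15, adjusted p = 0.602) and AJUBA at -0.004 (SE 0.16). The log2 difference between the siRNAs was -1.37 (SE 0.15, adjusted p = 1.21e-05) for ASAP1 and -0.87 (SE 0.16, adjusted p = 0.00123) for AJUBA. LATS2 and NT5E rose with siACAT1-2 in T24 cells, by 0.51 (SE 0.16) and 0.37 (SE 0.11).

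In the remaining lists calls were few, where 8.48% of all genes were called. The share was 7.41% for p53 targets, 4.17% for ERK output and feedback, 4.55% for ER chaperones and 13.6% for NRF2 targets. Of 27 p53 targets PHLDA3, a repressor of AKT, rose (3.92, 5.19 and 4.24 RPKM, then 7.73, 11.1 and 7.02 RPKM, log2 fold change 0.96, SE 0.19, adjusted p = 0.00337) and RRM2B fell (-0.66, SE 0.16, adjusted p = 0.0103), with a median of -0.04. Of 24 genes of ERK output and feedback SPRY4, a feedback inhibitor, rose (0.81, SE 0.16, adjusted p = 0.00417). Of 22 ER chaperones and unfolded protein response genes PDIA6 rose (0.49, SE 0.11, adjusted p = 0.0106), with 25.2% of its exon length shared with the antisense gene ATP6V1C2. Of 22 NRF2 targets FTH1 (0.50, SE 0.14, adjusted p = 0.0287, with 62.4% of its exon length shared with the antisense gene BEST1) and AKR1C1 (1.17, SE 0.35, adjusted p = 0.0452) rose and 1 member fell. AKR1C1 was at 1.56, 1.28 and 1.97 RPKM with siNC, at 4.03, 2.80 and 3.83 RPKM with siACAT1-2 and at 28.5, 2.41 and 18.7 RPKM with siACAT1-1, and it was lower with siACAT1-2 than with siACAT1-1 by a log2 difference of -1.86 (SE 0.36, adjusted p = 0.00192). The call for AKR1C1 was lost in 7 of the 9 fits with libraries left out (adjusted p up to 0.368), and its log2 fold change was 0.65 without siACAT1-2 replicate 2. FTH1 lost its call in 6 (up to 0.378), RRM2B in 6 (up to 0.119), PDIA6 in 6 (up to 0.132), SPRY4 in 3 (up to 0.093) and PHLDA3 in 1 (0.064). In the test between the siRNAs, which called 14.7% of all genes, 18 of the 22 NRF2 targets were lower with siACAT1-2 and 11 of the 34 mesenchymal and epithelial markers were higher. None of the 9 tested urothelial markers was called, and the summed level of all 16 found in the table was 153.6 to 379.5 RPKM with siNC and 117.2 to 340.8 RPKM with siACAT1-2.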

How the data were processed

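RNA was made into libraries with a stranded mRNA kit that labels molecules with UMIs, per the labels. The authors trimmed reads with Trimmomatic 0.36, aligned them to GRCh38 with STAR 2.5.3 and counted them on exons with featureCounts of Subread 1.5.1. The annotation release, the strand setting and the use of UMIs in counting are not given in the sources used here. The deposited tables hold raw read counts and RPKM values per gene. The deposited RPKM values were computed by the authors from the counts, exon length and library total, and are printed as levels.

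Counts of all 18 libraries were fitted in 1 model (edgeR 4.0.16 in R 4.3.3, TMM, filterByExpr by group, quasi-likelihood test) with 6 group terms and a block for each replicate number of each line, leaving 8 residual degrees of freedom. Genes were called at a Benjamini-Hochberg adjusted p under 0.05 over the 20144 genes tested. SE is the size of the log2 fold change divided by the square root of F. Libraries were paired by the replicate number of their labels. The deviations of same-numbered libraries from their group means correlated across genes (0.411, 0.597 and 0.267 in T24 cells, against -0.48 to 0.178 for other pairs). The labels call the numbers biological replicates and do not say what they share. The p-values measure the spread left over all 18 libraries once group and replicate number are fitted. They do not measure the spread between replicate numbers. Data for this comparison over 20144 genes were simulated from the fitted model, block included, with changes placed only in genes of higher counts. Of these, 93% of changes of 1 and 97% of changes of 2 on the log2 scale were recovered, and 6.4% of calls were false. The simulation takes the block as true, so it cannot show whether the block is right, and it gives no recovery for genes of low counts.

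Genes were named by rule: ACAT1, the 14 largest falls and 14 largest rises among called genes of at least 1 RPKM in the higher group with 1 direction in all 3 replicate numbers and no clone name, up to 3 called members with the largest change per list, and 24 genes the study followed by immunoblot or PCR. Further members are given as examples of their list. The comparison, the 24 lists and the rule were chosen with earlier results of these data known. Exon overlaps come from the deposited coordinates. For 7-mers, 12921 tested genes were matched by symbol to a GENCODE v44 canonical transcript with a 3′ UTR, and ACAT1 7-mers held by at least 50 genes were ranked on UM-UC-3 values, on the transcript strand. Alternatives were other scalings and filters, DESeq2 1.42.0, limma 3.58.1 on log2(RPKM + 0.5), fits to fewer libraries, no block, and leaving out libraries. Some members of the lists and of the largest changes are not reported here.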

Additional observations from a re-analysis of the deposited data

Results flagged for a closer look

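For 13 genes called in T24 cells at 1 RPKM or more in the higher group, the siACAT1-2 effect differed from that in UM-UC-3 cells by the test of the difference itself, at adjusted p of 0.00362 to 0.0408. The difference, T24 minus UM-UC-3 on the log2 scale, was -1.92 for RHPN1, -1.71 for ACTA2, -1.49 for PLCB4, -1.35 for PALM3 and -0.78 for YJEFN3. It was 0.78 for NT5E, 0.82 for KRT8, 0.90 for PRSS23, 0.90 for SH3BP5L, 1.00 for RAB31, 1.14 for WSCD1, 1.58 for ADAM19 and 1.95 for TMEM156. The genes other than RHPN1, ACTA2 and PALM3 were chosen after their values were seen.

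PLCB4, a phospholipase C of G-protein signaling, had the lowest adjusted p of the 13 (0.00362). It was at 13.6, 4.77 and 12.02 RPKM with siNC and at 5.24, 2.48 and 4.07 RPKM with siACAT1-2 in T24 cells, a fall by 1.29 on the log2 scale (SE 0.13), and at 2.05 ± 0.151 and 2.43 ± 0.371 RPKM (SD, n = 3) in UM-UC-3 cells. ADAM19, a membrane metalloprotease, rose from 0.947, 0.405 and 0.981 RPKM to 2.67, 0.783 and 4.33 RPKM in T24 cells, with a log2 fold change of 1.62 (SE 0.19). In UM-UC-3 cells it was at 4.08 ± 1.79 and 4.17 ± 1.11 RPKM (SD, n = 3).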

How the results depend on the processing

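Without the replicate block, calls fell to 54 for all genes, 0 for mitosis lower, 1 for lysosome higher, 0 for interferon higher, 1 for mesenchymal higher, 0 for the difference between the lines and 195 for that between the siRNAs, and 66 of the 76 called named genes lost their call; the cause was not tested beyond the pairing check. With libraries left out the counts were 473 to 1831, 13 to 27, 5 to 16, 1 to 15 and 4 to 12 for the first 5 of these. Interferon calls were 6 with limma, and 6-mers gave 47.3%. The other counts stayed within 1.5 times (1223 calls with T24 libraries only to 2050 with DESeq2, and 1859 with the 6 libraries). ACAT1 stayed called at -4.54 to -3.69. No direction of a called named gene reversed, and the other called genes were not checked for this. Among called named genes, limma lost 11, T24 libraries only 7 and DESeq2 4, with 36 of 76 kept in each of the 9 fits with libraries left out. With 3 libraries a group, errors such as 0.23 on the log2 scale for MYC limit which changes could be seen, at 28038644 counts or more a library.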

Other observations

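Gene families were counted by symbol after the values of the lists had been seen, and families of the endolysosome had many calls. Of 23 subunits and accessory proteins of the vacuolar ATPase, the proton pump of lysosomes, 10 rose and 1 fell (median 0.43, against 0.01 over all genes). That is 47.8% called, against 8.48% of all genes. ATP6V1F, a subunit of its cytosolic stalk, was at 350.7, 565.1 and 316.4 RPKM with siNC and at 562.3, 876.7 and 480.8 RPKM with siACAT1-2 (log2 fold change 0.66, SE 0.11, adjusted p = 0.000803). The subunit that fell, ATP6V1G1, was at 67.6, 141.0 and 67.9 RPKM and at 51.7, 103.3 and 49.8 RPKM (log2 fold change -0.41, SE 0.12, adjusted p = 0.0387). Of 13 cathepsins, of which 38.5% were called, 4 rose and 1, CTSV, fell (log2 fold change -0.71, SE 0.15, adjusted p = 0.00463). Of 16 serpins 6 rose and none fell (37.5% called). None of the V-ATPase, cathepsin or serpin calls was kept without the replicate block.

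Adhesion and matrix families had calls upwards as well. Of 17 integrin genes 4 rose and none fell (23.5% called, against 8.48% of all genes). The median of the integrins was 0.12, with 9 members positive and 8 negative. ITGA5, the fibronectin receptor chain, was at 2.80, 3.82 and 3.16 RPKM with siNC and at 8.26, 6.65 and 10.9 RPKM with siACAT1-2, without overlap (log2 fold change 1.41, SE 0.16, adjusted p = 1.48e-05). ITGB1, its partner, rose in each replicate number too, from 83.3, 110.7 and 89.8 RPKM to 121.5, 174.5 and 164.1 RPKM. Of 10 laminins 3 rose and none fell (30% called, median 0.33), and of 29 collagens 6 rose and 1 fell (24.1% called). The collagens as a family did not shift, with 14 members positive and 15 negative (median -0.007). Of 39 kinesins 10 fell and 3 rose (33.3% called). KIF20A, KIF15, KIF14, KIF2C, KIF11, KIF20B, KIF18A, KIF4A and KIF23, which act in mitosis, and KIF5C, a transport motor, fell. Large families of other functions had few calls: 1 of 77 cytosolic ribosomal protein genes, 4 of 78 mitochondrial ribosomal protein genes, 2 of 37 complex I genes, none of 46 proteasome genes, none of 18 tubulins and 11 of 474 zinc finger genes.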
